A study of Mus musculus with 6 samples.

Results

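The connexin genes of mouse epidermis examined here were Gja1, Gjb2, Gjb5 and Gjb6, chosen by name as genes whose proteins are known from keratinocyte gap junctions. They were 4 of the 21370 genes with a named probe on the array. Each had 1 named probe sequence, found through the RefSeq accession that the array design gives for it. Expression was measured in epidermis peeled from dorsal skin of mouse embryos at embryonic day 16 (E16), of a mixed 129SvEx:C57BL/6 strain by the labels. Each of 6 Agilent arrays in 2 colours carried RNA of a knockout beside RNA of a wild-type littermate control, with 2 arrays per genotype and the dyes exchanged between them. In the Sox4 cKO and the Sox11 cKO, floxed alleles of Sox4 or Sox11 were deleted by a Cre recombinase under the keratin 14 promoter (Krt14-Cre), which is active in basal keratinocytes. The Krt14-Cre line was FVB/N by the study's methods, so embryos of these crosses can carry FVB/N background. In the Sox4/11 dcKO (dcKO here) both genes were deleted by the same Cre. SOX4 and SOX11 are closely related transcription factors of the embryonic epidermis. Cells of other origin in the peeled epidermis are not targeted by this Cre. The breeding scheme also used Sox12-/- animals, and the Sox12 genotype of the profiled embryos is not given in the sources used here. Nor do they give whether an RNA sample came from 1 embryo or from a pool, or whether a wild-type sample served in more than 1 comparison.

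Connexins are membrane proteins that assemble in rings to form hemichannels. Hemichannels of neighbouring cells dock to make gap junctions, through which ions and small metabolites pass. Keratinocytes are coupled by several connexins at once, and the mixture changes as cells leave the basal layer and differentiate. Inherited mutations of some connexin genes cause deafness, thickened skin of the palms and soles, or hair defects. Gja1 encodes connexin 43 (Cx43), the most widely expressed member of the alpha class, found through the lower layers of epidermis. The beta class includes Gjb2 (connexin 26), Gjb6 (connexin 30) and Gjb5.

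Gjb2 and Gjb6 are neighbours on chromosome 14 and lie on the same strand, Gjb5 lies on chromosome 4, and Gja1 on chromosome 10. The 250 bases before the annotated start of Gjb2 and of Gjb6 are shown because both genes were higher on both dcKO arrays (values below) and because the windows differ in base composition. They are RefSeq sequence of build GRCm38.p6, written 5′ to 3′ on the minus strand, at chr14:57104703-57104952 for Gjb2 and chr14:57133612-57133861 for Gjb6. Capitals mark CpG dinucleotides.
Gjb2: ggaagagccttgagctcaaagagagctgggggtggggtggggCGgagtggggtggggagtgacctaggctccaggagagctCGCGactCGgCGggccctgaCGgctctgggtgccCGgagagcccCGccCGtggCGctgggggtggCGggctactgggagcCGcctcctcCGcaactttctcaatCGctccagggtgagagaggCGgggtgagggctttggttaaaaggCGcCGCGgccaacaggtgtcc
Gjb6: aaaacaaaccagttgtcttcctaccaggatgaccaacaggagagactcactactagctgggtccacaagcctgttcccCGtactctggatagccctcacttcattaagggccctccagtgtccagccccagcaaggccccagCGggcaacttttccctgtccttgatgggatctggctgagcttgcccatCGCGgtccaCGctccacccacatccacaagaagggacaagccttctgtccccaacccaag
The Gjb2 window held 18 CpG dinucleotides at 69.2% G and C, and 78.3% of the 32851 promoter windows of the same length in the RefSeq table held fewer. The Gjb6 window held 5 CpG at 56.8% G and C, close to the median window with 6 CpG and 52.4%. Gja1 had 6 CpG at 50% G and C, and Gjb5 had 3 at 54.4%. The letters AACAAAG and AACAAT, core forms of the motif that SOX proteins bind, were searched on both strands. They were in 5.03% and 9.42% of all windows and in 0 of the 4 connexin windows, which says only that these letters are not in these 250 bases. Neither motif contains the other.

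Values for each array are log2 of knockout over wild type from the deposited series table, so 0 is equal signal and 1 a doubling in the knockout. A channel level is the log2 intensity of 1 dye after normalisation within and between arrays. Levels are set only against levels of the same probe. In whole epidermis, fewer cells of a type and less RNA per cell cannot be told apart. The wild type on Sox4 cKO replicate 1 and that on Sox11 cKO replicate 2 stood apart in some markers, and values without those arrays are given with the results. The limma fit gave a mean per genotype with a 95% interval, and a gene passed where its p, adjusted by Benjamini-Hochberg over all 55681 probes, was under 0.05. None of the 4 connexins passed in any genotype. At that threshold 0.833% of all probes passed in dcKO, against 0.00539% for Sox4 cKO and 0% for Sox11 cKO. At an unadjusted p under 0.05, limma gave 3 of the 4 connexins in dcKO (Gja1, Gjb2 and Gjb6, all higher), 1 in Sox4 cKO (Gjb5, higher) and 0 in Sox11 cKO, where 9.89%, 6.18% and 7.05% of all probes were under it. Counting higher probes alone, the shares were 4.95% in dcKO and 2.78% in Sox4 cKO. The median log2 difference of the 4 genes was 0.41 for dcKO, 0.25 for Sox4 cKO and 0.02 for the Sox11 cKO (-0.11 there without Gjb5, which was not well above background), and that of all 21370 named genes lay between -0.0066 and 0.0016.

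Gjb6 had the highest mean difference of the 4 genes in dcKO. Its protein, connexin 30, is found in differentiating keratinocytes and in the cochlea. The log2 ratio of Gjb6 was 0.58 and 0.66 on the dcKO arrays, 0.22 and 0.23 on the Sox4 cKO arrays, and -0.31 and -0.13 on the Sox11 cKO arrays. The 3 genotypes did not overlap, with dcKO highest and Sox11 cKO lowest. The share of all probes without overlap was not counted, and with 2 arrays per genotype chance alone can give it. In dcKO the mean was 0.62 ± 0.06 (SD, n = 2), a 1.53-fold higher signal, with an interval from 0.33 to 0.91. The limma p was 0.0010, and the adjusted p of 0.0874 missed the threshold. The adjusted p for Gjb6 passed under 4 of 15 other settings of the analysis, with values between 0.0024 and 0.61, while the log2 difference stayed between 0.56 and 0.63. In Sox4 cKO the mean was 0.22 ± 0.01 (SD, n = 2; limma adjusted p = 0.834), and in Sox11 cKO it was -0.22 ± 0.13 (SD, n = 2; limma adjusted p = 0.768).

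**Figure D1:**
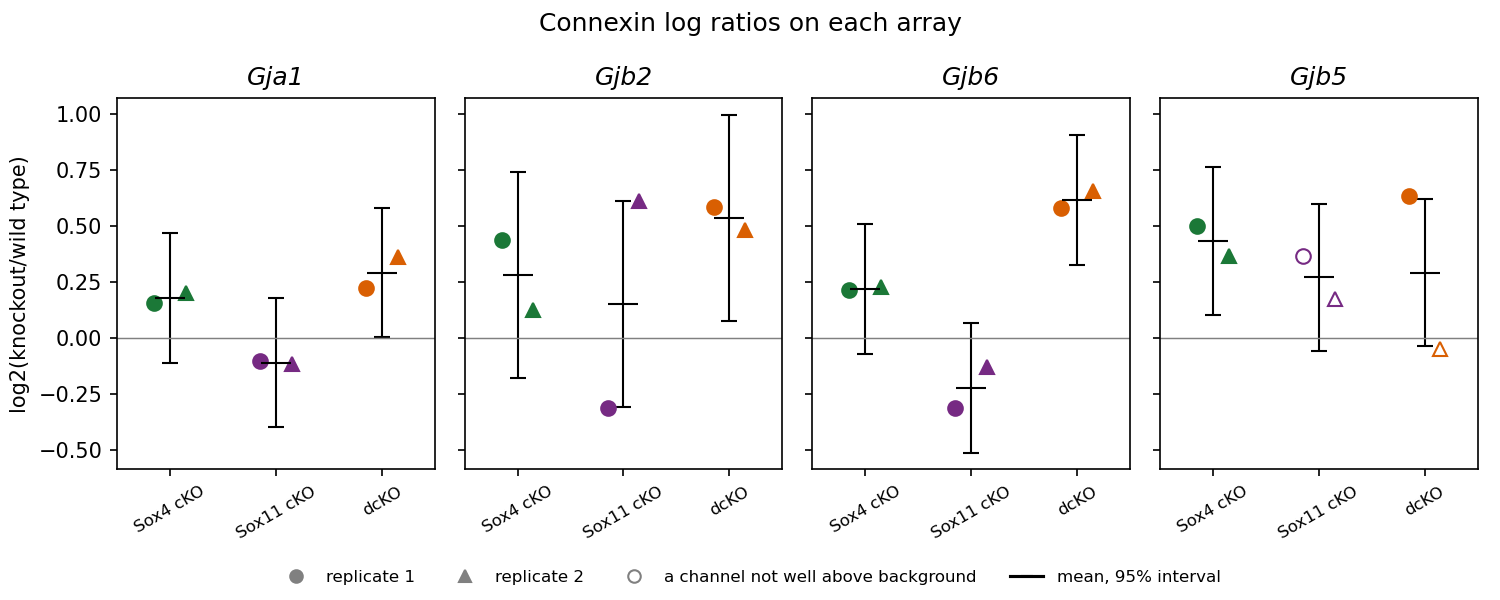
Log2 of knockout over wild type (vertical axis, no unit) for Gja1, Gjb2, Gjb6 and Gjb5 in the 3 genotypes; circles are replicate 1, triangles replicate 2, open symbols arrays on which a channel was not well above background, and black bars the limma mean with its 95% interval. Gjb6 sits at 0.58 and 0.66 in dcKO and below 0 on both Sox11 cKO arrays, whereas the Gjb2 points of Sox11 cKO lie on either side of 0.

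The channel levels of Gjb6 gave the same order. Over the 6 wild-type samples the level ran from 10.97 to 11.18 with a median of 11.07. The dcKO samples were at 11.72 and 11.73, above every wild-type sample. The Sox4 cKO samples were at 11.40 and 11.22, also above every wild-type sample, and the Sox11 cKO samples at 10.66 and 10.95, below every wild-type sample. These levels come from the same arrays as the ratios. The share of all probes with knockout samples outside the wild-type range was not counted, for Gjb6 or for the genes below.

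Gjb2 encodes connexin 26, which is low in most resting adult epidermis and rises in wounded and hyperproliferative skin. Its log2 ratio was 0.59 and 0.48 on the dcKO arrays, 0.44 and 0.13 on the Sox4 cKO arrays, and -0.31 and 0.61 on the Sox11 cKO arrays. It was higher in the knockout on 5 of 6 arrays, and the range of Sox11 cKO covered all values of the other genotypes. The dcKO mean of Gjb2 was 0.53 ± 0.07 (SD, n = 2), 1.45-fold, with an interval from 0.07 to 0.99, a limma p of 0.027 and an adjusted p of 0.428. The mean was 0.28 ± 0.22 (SD, n = 2; limma adjusted p = 0.870) in Sox4 cKO and 0.15 ± 0.65 (SD, n = 2; limma adjusted p = 0.920) in Sox11 cKO. In a fit without Sox4 cKO replicate 1 the Sox4 cKO difference of Gjb2 was -0.08, though the array left was at 0.13. Without Sox11 cKO replicate 2 the Sox11 cKO difference was -0.41 for Gjb2, -0.29 for Gjb6 and -0.06 for Gja1. The array left was at -0.31, -0.31 and -0.10. Such fits take the dye term from the other genotypes, which moves the difference away from the ratio on the array left.

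The spread of Gjb2 in Sox11 cKO came with a single wild-type sample. The wild-type level was 12.16 and 12.16 beside Sox4 cKO, 12.15 and 11.49 beside Sox11 cKO, and 12.19 and 12.13 beside dcKO. The wild-type sample of Sox11 cKO replicate 2 was thus far below the 5 others, while the knockout on that array, at 12.11, lay near them. The same wild-type sample had the lowest summed level of the 7 granular keratinocyte markers, 15.28 against 16.03 to 16.59 in the other wild-type samples, and of the 6 spinous markers, 16.43 against 17.06 to 17.59. The part of these markers in the Gjb2 value was not tested. The dcKO samples, at 12.77 and 12.62, were above all 6 wild-type samples. The Sox4 cKO samples were at 12.61 and 12.29, also above them, and the Sox11 cKO samples at 11.84 and 12.11, within the wild-type range.

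**Figure D2:**
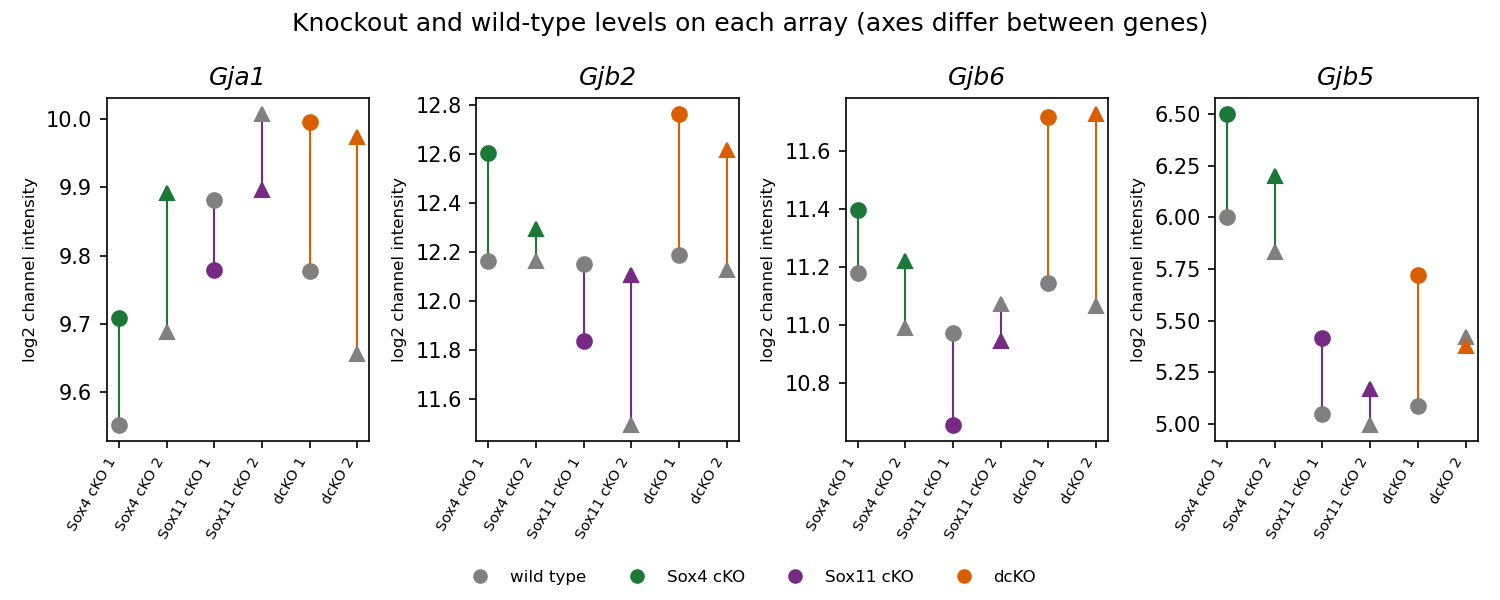
Channel level (log2 intensity, a separate axis for each gene) of the knockout sample, coloured, and the wild-type sample, grey, on each of the 6 arrays, joined by a line; circles are replicate 1 and triangles replicate 2. For Gjb6 and Gjb2 both dcKO samples lie above all 6 wild-type samples, and the lowest Gjb2 point, 11.49, is the wild type of Sox11 cKO replicate 2.

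Gja1 had 10 spots of its probe on each array. Cx43, its product, binds the scaffold protein ZO-1, and its turnover sets how long gap junction plaques last. The log2 ratio was 0.22 and 0.36 on the dcKO arrays, 0.16 and 0.20 on the Sox4 cKO arrays, and -0.10 and -0.12 on the Sox11 cKO arrays. As for Gjb6, the 3 genotypes did not overlap and lay in the same order, but within a range of less than 0.5 on the log2 scale. Here too the share of all probes that do so was not counted. The single spots of Gja1, which measure the precision of an array and not the spread between animals, ran from 0.12 to 0.31 and from 0.26 to 0.41 on the dcKO arrays, and from -0.30 to 0.02 and from -0.23 to 0.06 on the Sox11 cKO arrays. All Gja1 spots kept on the dcKO arrays were above 0. The mean of Gja1 was 0.29 ± 0.10 (SD, n = 2) in dcKO, 1.22-fold, with an interval from 0.0031 to 0.58, a limma p of 0.048 and an adjusted p of 0.498. It was 0.18 ± 0.03 (SD, n = 2; limma adjusted p = 0.866) in Sox4 cKO and -0.11 ± 0.01 (SD, n = 2; limma adjusted p = 0.902) in Sox11 cKO.

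The levels of Gja1 overlapped. The wild-type samples ran from 9.55 to 10.01 with a median of 9.73. The dcKO samples, at 9.996 and 9.974, exceeded 5 of the 6 wild-type samples, and the Sox4 cKO (9.71 and 9.89) and Sox11 cKO samples (9.78 and 9.90) lay within the wild-type range.

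Gjb5 was the only gene of the 4 that was not well above background in every channel. Its protein is a connexin of stratified epithelia. Both channels were well above background on both Sox4 cKO arrays, where the log2 ratio was 0.50 and 0.37. The Sox4 cKO mean of Gjb5 was 0.43 ± 0.09 (SD, n = 2), 1.35-fold, with an interval from 0.10 to 0.76, a limma p of 0.016 and an adjusted p of 0.785. On the Sox11 cKO arrays neither channel was well above background, so no fold is given there. On the dcKO arrays the log2 ratio was 0.63 and -0.05, and the knockout channel was well above background only on the first of them. The dcKO mean of 0.29 ± 0.48 (SD, n = 2; limma adjusted p = 0.563) had a spread larger than itself. The level of Gjb5 was 6.503 and 6.200 in Sox4 cKO, above the wild-type range of 4.99 to 6.00, whose upper end was the wild type of Sox4 cKO replicate 1. It was 5.72 and 5.38 in dcKO and 5.42 and 5.17 in Sox11 cKO, within that range.

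Set side by side, 4 of the 4 connexins were higher on both Sox4 cKO arrays and 3 of 4 on both dcKO arrays. In Sox11 cKO, of the 3 genes well above background, Gja1 and Gjb6 were lower on both arrays and none was higher on both, and Gjb5 gave positive ratios from signals not well above background. Of all probes, 23% were higher on both arrays in Sox4 cKO, 24.6% in dcKO and 22.5% in Sox11 cKO, and 22.8% were lower on both in Sox11 cKO. Among probes well above background in all 4 channels of dcKO, 29.3% were higher on both arrays.

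The knockouts were also compared with each other within the fit, by 4 contrasts for each of the 4 genes. None of the 16 tests passed, with limma adjusted p between 0.262 and 0.994. The contrast of dcKO with Sox11 cKO passed for 0.163% of all probes, that of dcKO with Sox4 cKO for 0.147%, that of Sox4 cKO with Sox11 cKO for 0.0018%, and that of dcKO with the sum of both single knockouts for 0.088%. At an unadjusted p under 0.05 there were 3 of the 16, all of Gjb6, while 7.21%, 6.12%, 5.28% and 6.38% of all probes were under it in the contrasts in the order just given. The log2 difference of Gjb6 was 0.84 higher in dcKO than in Sox11 cKO (interval 0.43 to 1.25, limma adjusted p = 0.262). It was 0.40 higher in dcKO than in Sox4 cKO (interval -0.01 to 0.81, adjusted p = 0.826) and 0.44 higher in Sox4 cKO than in Sox11 cKO (interval 0.03 to 0.85, adjusted p = 0.929). Against the sum of both single knockouts, Gjb6 in dcKO was higher by 0.62 (interval 0.11 to 1.12, adjusted p = 0.760). For Gja1 the dcKO difference exceeded that of Sox11 cKO by 0.40 (interval -0.01 to 0.81, adjusted p = 0.696). For Gjb2 it exceeded that of Sox11 cKO by 0.38 (interval -0.27 to 1.03, adjusted p = 0.817), and that of Sox4 cKO by 0.25 (interval -0.40 to 0.90, adjusted p = 0.948). These intervals are wide enough to hold both no difference and a difference larger than the dcKO effect itself for Gjb2.

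Other family members were read from a list of 16 connexins and pannexins, the latter being channel proteins related to connexins in shape. Of these, 10 were well above background in no channel and 3 in all channels. In dcKO 1 of the 16 passed, Gjc1, which was lower, as 0.309% of all probes did. None passed in either single knockout. At an unadjusted p under 0.05, limma gave 0 higher and 2 lower in dcKO (Gjc1 and Panx1; 9.89% of all probes in either direction), 0 higher and 3 lower in Sox4 cKO (Gjc1, Panx1 and Gjd2; 6.18%), and 0 higher and 1 lower in Sox11 cKO (Gje1; 7.05%). The median log2 difference of the 16 was 0.0047 for dcKO, -0.02 for Sox4 cKO and -0.0093 for the Sox11 cKO.

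Gjc1 encodes connexin 45, known from heart, vessels and smooth muscle. Its log2 ratio was -0.62 and -1.36 on the dcKO arrays, -0.27 and -0.94 on the Sox4 cKO arrays, and -0.20 and -0.21 on the Sox11 cKO arrays. Gjc1 was lower on all 6 arrays, and the dcKO and Sox4 cKO values overlapped. On both dcKO arrays the wild type was well above background and the knockout was not. Gjc1 was 1.98-fold lower in dcKO by the measured ratio (log2 difference -0.99, interval -1.35 to -0.63, limma adjusted p = 0.0302). This fold is an estimate and not a lower limit, because the knockout signals were above the lowest signal that passed as well above background. It depends on the processing, and the log2 difference ran from -2.24 to -0.58 over 15 other settings. The call was lost without dcKO replicate 1 (log2 difference -1.19, adjusted p = 0.0970) and without dcKO replicate 2 (-0.79, 0.403), where the lone dcKO array is assumed to vary like the other genotypes. It was also lost without the dye term (adjusted p = 0.122) and with the scanner software's own log ratio (-2.24, 0.305). Of the 6 blood vessel markers, 1 was well above background in all channels and 3 in none, and their median log2 difference in dcKO was -0.01. The median of the 8 dermal fibroblast markers in dcKO was -1.73, with 6 of 8 lower on both arrays. The other 2, Dcn (mean 0.35) and Postn (0.58), were higher on both. Of all 21370 named genes, 5962 were lower and 5446 higher on both dcKO arrays. The part of dermal cells in the Gjc1 value was not tested.

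**Figure D3:**
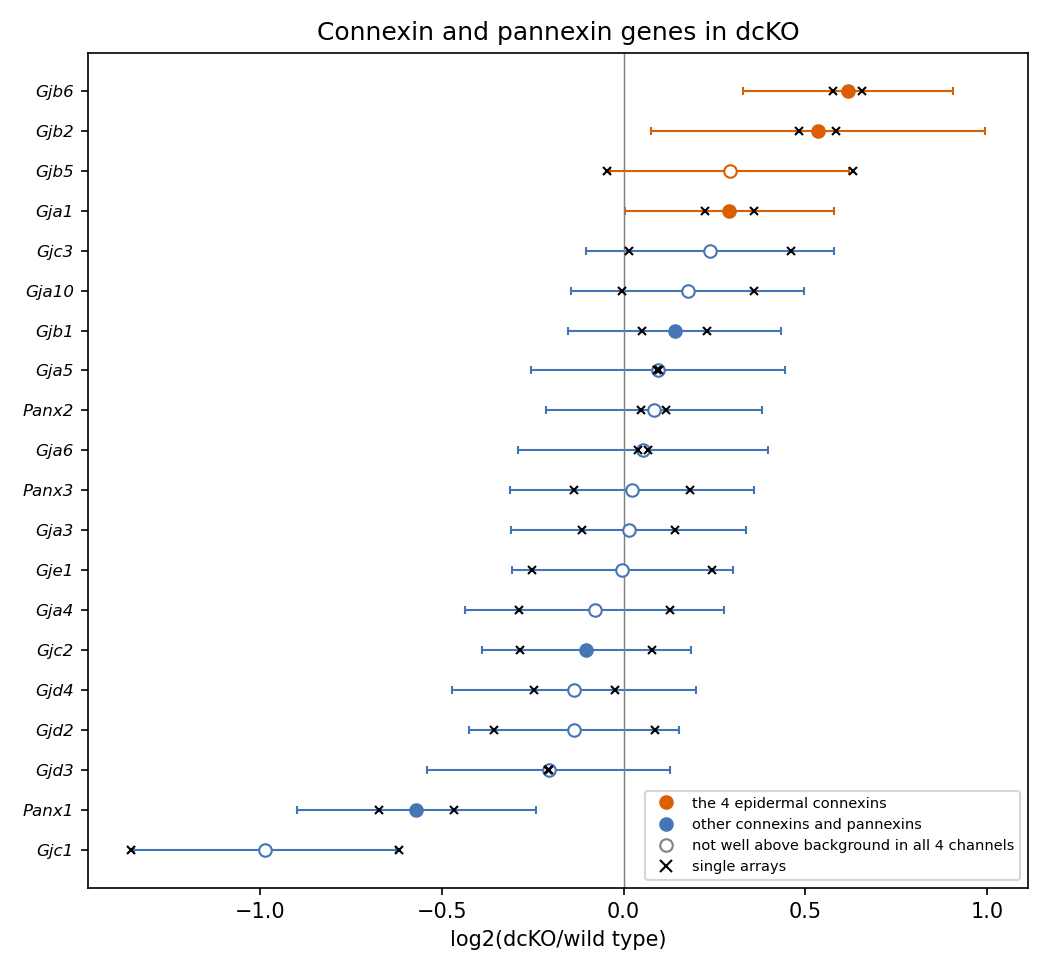
Log2 of dcKO over wild type (horizontal axis) for the 4 epidermal connexins, orange, and 16 other connexins and pannexins, blue; circles are limma means with 95% intervals, crosses the single arrays, and open circles genes not well above background in all 4 channels. The beta connexins Gjb6 and Gjb2 are at the top with means of 0.62 and 0.53, and Gjc1 is lowest at -0.99, where the knockout channel was not well above background.

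Panx1, chosen for mention after its values were seen, encodes a channel of keratinocytes that releases ATP. Its log2 ratio was -0.67 and -0.47 on the dcKO arrays, -0.35 and -0.48 on the Sox4 cKO arrays, and -0.24 and 0.24 on the Sox11 cKO arrays. The dcKO mean was -0.57 (interval -0.90 to -0.24, limma adjusted p = 0.179), and it passed under 3 of 15 other settings, with adjusted p down to 0.0212.

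Of 11 partners of gap junctions, among them scaffold proteins, kinases of connexin 43 and the adherens junction genes Cdh1 and Ctnnb1, none passed in any genotype. At an unadjusted p under 0.05, limma gave 1 higher (Cnst) and 3 lower (Dbn1, Nedd4 and Csnk1d) in dcKO. It gave 0 higher and 1 lower (Dbn1) in Sox4 cKO and 0 in Sox11 cKO, beside the same 9.89%, 6.18% and 7.05% of all probes. Dbn1 had a mean of -0.86 in dcKO (limma adjusted p = 0.0503) and -1.10 in Sox4 cKO (adjusted p = 0.231). Its knockout channel was not well above background on these arrays. The dcKO mean was -0.40 for Nedd4 and -0.31 for Csnk1d. These lower genes were named after their values were seen. Tjp1, the gene of ZO-1, had log2 ratios of 0.20 and -0.13 on the dcKO arrays, with a mean of 0.04 (interval -0.28 to 0.36, limma adjusted p = 0.966). The sign of this Tjp1 mean turned with median centring of the scanner log ratios in place of loess. Cnst, named after its values were seen, encodes consortin, which binds connexins on their way to the membrane. It had log2 ratios of 0.68 and 0.69 on the dcKO arrays (mean 0.69, interval 0.36 to 1.01, limma adjusted p = 0.0930). On the Sox4 cKO arrays Cnst was at -0.17 and -0.0017, and on the Sox11 cKO arrays at 0.22 and -0.17.

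Markers of keratinocyte layers moved on the same dcKO arrays. The 6 basal markers had a median log2 difference of 0.02 in dcKO. The 6 spinous markers had a median of 0.57, and 6 of 6 were higher on both arrays. The 7 granular markers had a median of 1.25, with 7 of 7 higher on both arrays and 2 passing the test. The summed log2 level of the granular markers was 16.76 to 16.96 in the dcKO samples and 16.03 to 16.05 in their wild-type samples. The 6 markers of periderm, the outer cover of embryonic epidermis, had a median of -1.17, with 6 of 6 lower on both arrays and 3 passing. Their summed level was 11.83 to 11.89 in dcKO and 12.97 to 13.08 in its wild type. Beside these marker counts, 5446 of all 21370 named genes were higher and 5962 lower on both dcKO arrays. The 8 dermal fibroblast markers summed to 13.07 to 13.29 in dcKO and 13.17 to 13.67 in its wild type, and 7 of 8 were well above background in all channels. All 6 basal and all 6 spinous markers were well above background in every channel, as were 5 of the 7 granular markers. The other granular markers, Lce1b and Kprp, were the 2 that passed in dcKO. They were well above background in no Sox11 cKO channel and are included in the Sox11 cKO granular median below. The part of the marker shifts in the connexin values was not tested.

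The single knockouts differed in these markers. In Sox11 cKO the spinous median was 0.56, with 0.18 and 0.93 on the 2 arrays, the granular median 0.41, with 0.08 and 0.76, and the periderm median -1.15, with -1.51 and -0.58. In Sox4 cKO the spinous median was 0.06, the granular median 0.07 and the periderm median 0.48. Of the periderm markers, 5 of 6 were higher on both Sox4 cKO arrays, and Krt17 was lower on both (mean -0.94). The summed periderm level was 12.85 and 13.03 in the Sox4 cKO samples, below 12.92 and 13.19 in the wild type on the same arrays. The 8 dermal fibroblast markers had medians of -3.00 and 0.87 on the Sox4 cKO arrays and 1.11 and -0.68 on the Sox11 cKO arrays. The wild type of Sox4 cKO replicate 1 stood apart in non-epidermal RNA. Its 6 skeletal muscle markers summed to 10.24, against 7.51 to 8.45 in the other wild-type samples, and its dermal markers to 14.47, against 12.75 to 13.67. Sox4 cKO replicate 2 by itself was at 0.37 for Gjb5, 0.23 for Gjb6, 0.20 for Gja1 and 0.13 for Gjb2. A fit without Sox4 cKO replicate 1 took the dye term from the other genotypes. It gave 0.58 for Gjb5, 0.16 for Gjb6, 0.17 for Gja1 and -0.08 for Gjb2. The part of these markers in the Sox4 cKO values was not tested.

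**Figure D4:**
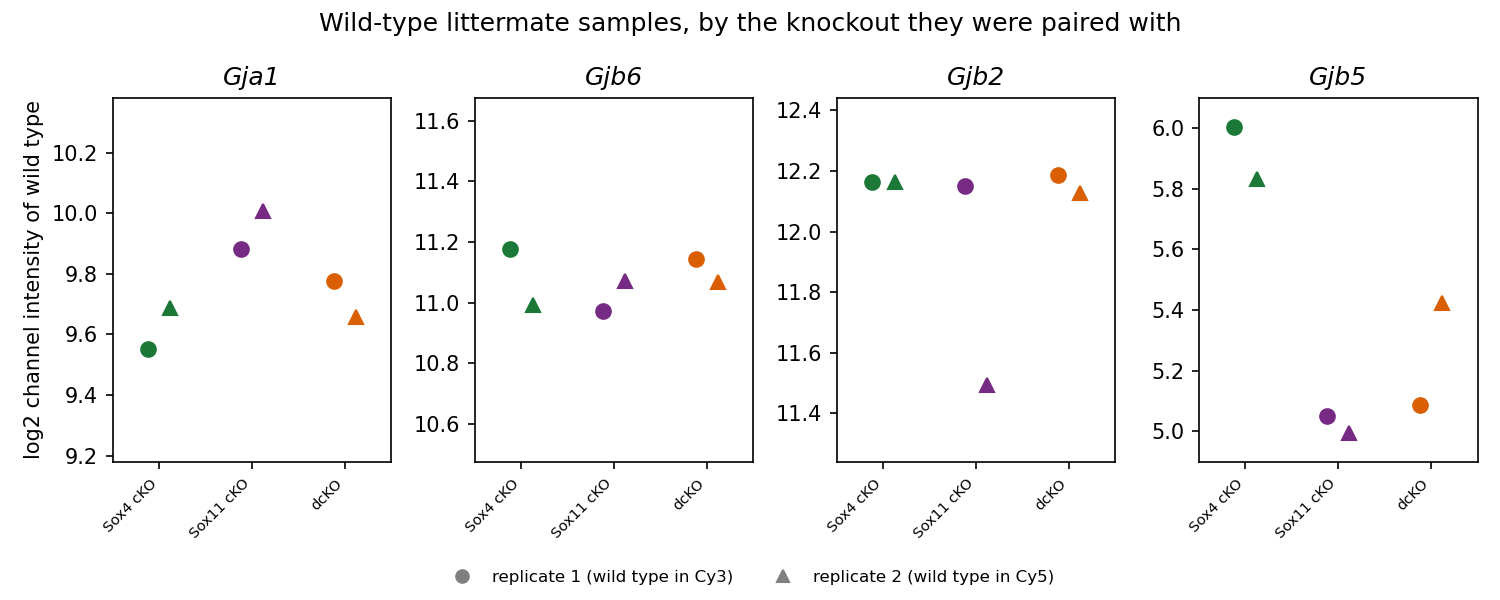
Level in the 6 wild-type samples (log2 channel intensity, each axis spanning the same length of log2 units) of the 4 connexins, by the knockout that shared the array; circles are replicate 1, with the wild type in Cy3, and triangles replicate 2, with the wild type in Cy5. Gjb6 spans 0.21 and Gja1 0.46, whereas Gjb2 spans 0.69, with its lowest point in the wild type of Sox11 cKO replicate 2.

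From lowest to highest wild-type sample, Gjb6 spanned 0.21, Gja1 0.46, Gjb2 0.69 and Gjb5 1.01 log2 units. The wild-type samples beside Sox4 cKO had the highest levels of Gjb5, 6.004 and 5.83, against 4.99 to 5.42 in the others.

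Likeness of pattern was measured as Pearson's r of the log2 ratios over the 6 arrays, among 10382 genes well above background on all of them. The genes nearest to Gjb6 were Ccdc6 (r = 0.98), Ciao2b (0.98) and Srp54c (0.97). Those nearest to Gja1 were AI837181 (r above 0.99), Rarg (0.99), a retinoic acid receptor, and Palm3 (0.99). Gjb2 was most like Vmn2r43 (0.99), Sesn1 (0.99) and 2010204K13Rik (0.98), and Gjb5 like U2af1l4 (r above 0.99), Galnt4 (0.99) and Cfap97 (0.99). Several of these genes varied far less than the connexin they resembled. Rarg, for instance, averaged 0.05 for dcKO, 0.02 for Sox4 cKO and -0.05 for Sox11 cKO. Among the connexins, Gja1 and Gjb6 had r = 0.95, Gjb2 and Gjb6 0.59, Gja1 and Gjb2 0.37, and Gjb5 had -0.05 to -0.10 with the others. With 6 arrays that share dyes and genotypes, these values describe the arrays only.

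The targeted genes were read as a check of the labels. Of the Sox4 probes, the first fell at least 3.05-fold in Sox4 cKO (limma adjusted p = 0.0284). In dcKO it was 2.997-fold lower by the measured ratio (limma adjusted p = 0.0022), and its log2 difference in Sox11 cKO was 0.08. The second Sox4 probe had log2 differences of -0.42 in Sox4 cKO (limma adjusted p = 0.802) and -0.82 in dcKO (limma adjusted p = 0.0768). Where these probes lie relative to the deleted part is not given in the sources used here. The knockout channel was not well above background for either Sox11 probe in Sox11 cKO or dcKO, nor was the wild type on every array. For the first of them the log2 ratio was 0.26 and -0.17 in Sox11 cKO (mean 0.05) and -0.96 and -0.48 in dcKO (mean -0.72, limma adjusted p = 0.196). No fold is given for it, because on dcKO replicate 2 the wild type was not well above background either. The deletion of Sox11 was therefore not checked by these probes. Between 38.9 and 43.6% of spots other than controls passed the scanner software's background test in a given channel, and none was saturated.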

How the data were processed

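RNA of 6 knockout samples, each with a wild-type littermate control, was labelled with Cy3 and Cy5 and hybridised to 6 arrays. The authors scanned the arrays and extracted them with Agilent Feature Extraction 11.0.1.1 (submitters' processing notes). The deposited scanner files hold median signal and background intensity per spot, flags for outliers and for signal well above background, and a log10 ratio of red over green. The deposited series table holds log2 ratios of knockout over wild type, background-corrected and loess-normalised by the authors per their methods. Its direction was found by recomputing each array from the scanner intensities with normexp, offset 16 and loess (slope 1.00 on all 6 arrays, largest difference 0.016), and its array medians lay between -0.006 and 0.003.

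Groups, replicate numbers and dyes came from the sample labels. The series table was fitted with limma 3.58.1 in R 4.3.3 with a coefficient per genotype and a dye coefficient, moderated by eBayes (prior degrees of freedom 6.65, residual 2), two-sided, with Benjamini-Hochberg adjustment over 55681 probes. Replicate 1 always had the knockout in Cy5, so dye and replicate block are the same term. Deviations of samples with the same number correlated at 0.26, 0.31 and 0.33. The labels call the replicates biological, without saying more of their origin. Channel levels were taken after loess and Aquantile. A fold against a channel not well above background was taken against the higher of the dim probe's own signal and the lowest signal well above background on each array. It is a bound where the latter was the higher, and otherwise the measured ratio. With an array left out, a genotype's lone array is assumed to vary like the others. Its dye term then comes from the other genotypes, so the difference can depart from the ratio on that array. Called probes had an adjusted p under 0.05 and an absolute log2 difference over 1.5. All 4 connexins were named whatever their values, with other connexins, pannexins and partners that passed, Tjp1, and the 3 genes most like each connexin. Some genes of the connexin list are not reported here. The members and lists were chosen with earlier results of these data known. The script was tested on simulated data. Alternatives were other background corrections, scalings, colour treatments (ComBat, written out in R), filters and left-out arrays. Of the 55681 probes, 28341 could be given a gene name. Each connexin had 1 probe among these, so no other named probe could be tried, and unnamed probes were not searched. Array intensities have no counting depth, and the number of arrays limits the precision.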

Additional observations from a re-analysis of the deposited data

Results flagged for a closer look

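The wild-type level of Gjb2 was flagged because 1 of the 6 wild-type samples, that of Sox11 cKO replicate 2, stood apart. Its gap to the nearest other sample was 0.915 of the whole range, above Dixon's critical value for 6 samples, which chance exceeds in about 5% of groups. The level there was 11.49, against 12.13 to 12.19 in the 5 others. The wild-type levels of Gja1, Gjb5 and Gjb6 were not flagged.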

How the results depend on the processing

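With 2 arrays per genotype, a difference of the size and spread seen for Gja1, Gjb2 or Gjb5 could not be told from 0 after adjustment. Gjb5 was also limited by signal near background. The fit shares its estimate of a gene's spread over all 6 arrays. The Sox11 cKO pair of Gjb2 (SD 0.65) therefore also enters its dcKO interval. The standard error in dcKO was 0.20 for Gjb2 and 0.13 for Gjb6. For Gjb6 in dcKO the log2 difference was 0.61 with offset 50 (adjusted p = 0.0024) and 0.61 without background subtraction (0.0031), 0.56 after ComBat (0.0109) and 0.62 with dim probes left out (0.0418), where fewer probes were tested. In each of these 4 settings the count of connexins passing in dcKO was 1 and not 0. Gjb6 in dcKO minus Sox11 cKO also passed with offset 50 (0.82) and without background subtraction (0.82). Median centring of the scanner log ratios in place of loess, so without the intensity-dependent dye correction, turned the sign of Gja1 in dcKO minus Sox4 cKO (-0.11), of Gjb5 in dcKO minus Sox11 cKO (-0.029) and of Tjp1 in dcKO (-0.014). The Feature Extraction log ratio turned Gjb5 in dcKO minus Sox11 cKO to -0.24. For the other settings the cause was not tested.

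Without the replicate block, the dye term, the log2 differences were the same by construction. The adjusted p of Gjb6 in dcKO was then 0.183, of Gjb2 0.719 and of Gja1 0.883, no connexin passed, and Gjc1 lost its call (0.122). In the main fit, with the replicate block, called probes numbered 115 for dcKO, 3 for Sox4 cKO and none for Sox11 cKO. The Sox4 cKO count was 0 with offset 50, without background subtraction, with the Feature Extraction log ratio and with dim probes left out, and 5 with only the genotype's arrays. The Sox11 cKO count was 1 with offset 50, without background subtraction and with median centring, and 2 with only the genotype's arrays. With the Feature Extraction log ratio the dcKO count was 0.

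Leaving out each array in turn gave called probes of 0 to 39 in Sox4 cKO and 1 to 40 in Sox11 cKO. Gjb2 ranged from -0.078 to 0.64 in Sox4 cKO, -0.41 to 0.71 in Sox11 cKO and 0.33 to 0.74 in dcKO. The value of -0.078 arose from the dye term of the other genotypes, as Gjb2 was above 0 on both Sox4 cKO arrays. Its contrasts ranged from -0.11 to 0.61 (dcKO minus Sox4 cKO), -0.18 to 0.95 (dcKO minus Sox11 cKO), -0.43 to 0.69 (Sox4 cKO minus Sox11 cKO) and -0.46 to 0.67 (dcKO minus the sum). Gjb5 ranged from 0.03 to 0.55 in dcKO, -0.40 to 0.12 in dcKO minus Sox4 cKO and -0.24 to 0.28 in dcKO minus Sox11 cKO. Tjp1 ranged from -0.044 to 0.12 in dcKO and Gjb6 from 0.61 to 0.63 in dcKO. No other sign of a connexin difference turned.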
